A study of Mus musculus with 14 samples.

Results

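The RNAs described here are 8 genes, Malat1, Neat1, Miat, Snhg11, Pantr1, Pvt1, Sox2ot and Gas5, of 55450 genes in the mouse annotation. They were chosen by symbol as long noncoding RNAs that are known for work in the cell nucleus or for expression in neurons and their precursors. RNA was sequenced from the hippocampus of C57BL6 mice aged 30 days, in 14 libraries, each treated here as 1 mouse. The mice were KMT2D+/+ or carried KMT2D+/bGeo, a heterozygous gene-trap allele of Kmt2d, a histone H3 lysine 4 methyltransferase. By gavage they received methylcellulose as vehicle, or 1 mg/kg/day of TAK-418, which blocks LSD1, the demethylase encoded by Kdm1a. Dosing ran for 2 weeks, from an age of 2 weeks. The 4 groups were KMT2D+/+ vehicle (n = 3), KMT2D+/bGeo vehicle (n = 3), KMT2D+/+ TAK-418 (n = 5) and KMT2D+/bGeo TAK-418 (n = 3). The design asks how the mutation changes hippocampal RNA and how far the drug changes it in each genotype.

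Malat1 is a long, mostly unspliced RNA of nuclear speckles, the compartments where splicing factors gather. Neat1 is the scaffold of paraspeckles, which need its long isoform, while its short isoform ends at an upstream polyadenylation site. Miat, also called Gomafu, is a spliced neuronal RNA that stays in the nucleus and carries tandem TACTAAC elements, the sequence recognised by the branch point protein SF1. Snhg11 and Gas5 host small nucleolar RNAs in their introns, and the spliced remainder of Gas5 is short-lived in growing cells. Pantr1 starts beside the neuronal transcription factor gene Pou3f3, Sox2ot contains the stem cell factor gene Sox2 within an intron, and Pvt1 lies downstream of Myc.

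Each library was deposited as assembled transcripts with an abundance per length, on a scale like FPKM (fragments per kilobase of transcript, relative to library size), summed here per gene and scaled between libraries. This value is called scaled abundance below. Abundance times transcript length in kilobases removes the length again and is called the fragment level. Relative depth, read from the steps in the low values, was 35.1 to 60.0 in 13 libraries and 168 in KMT2D+/+ TAK-418 library 1. It is no read total, since the assembled transcripts summed to 125% to 146% of it. The labels name 2 library kits for all mice without saying which library had which. All 8 RNAs had a value in all 14 libraries, with at least 747 of those steps each. Kmt2d itself was 14.1 ± 0.233 (SD, n = 3) in KMT2D+/+ vehicle and 11.97 ± 2.15 (SD, n = 3) in KMT2D+/bGeo vehicle libraries, and the ranges overlapped. Kmt2d in treated mice was 15.3 ± 2.38 (SD, n = 5) in KMT2D+/+ and 12.5 ± 2.74 (SD, n = 3) in KMT2D+/bGeo libraries. The summed level of 6 neuronal markers was 2303 to 2394 in KMT2D+/+ vehicle and 1592 to 2541 in KMT2D+/+ TAK-418 libraries. In KMT2D+/bGeo mice it was 1808 to 2321 under vehicle and 2372 to 2493 under TAK-418, with no overlap. The 9 choroid plexus markers summed to 7272 in KMT2D+/+ vehicle library 3 and 5864 in KMT2D+/bGeo vehicle library 1, against 86.0 to 1107 in the other 12.

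The 8 RNAs spanned a wide range of levels per length, and the name abundant held for only some of them. Snhg11 was highest, at 478 to 714 scaled abundance (median 657), which ranked 52 among the 16792 genes tested. Malat1 followed at 267 to 387 (median 323, rank 165). Gas5 had a median of 139.6 (rank 605) and Miat of 138.4 (rank 608), and their ranges overlapped, with Gas5 above Miat in 8 of 14 libraries. Pantr1 lay at 43.5 to 61.0 (median 51.1, rank 1986) and Neat1 at 19.8 to 46.1 (median 24.9, rank 4217). Sox2ot at 7.83 to 18.1 (median 13.9, rank 6503) and Pvt1 at 7.71 to 11.3 (median 9.18, rank 8127) were mid-range genes, and their ranges overlapped. Pantr1 exceeded Neat1 within each of the 14 libraries although the ranges overlapped. Of the other neighbours in this order, the ranges of Snhg11 and Malat1, of Malat1 and Gas5, of Miat and Pantr1, and of Neat1 and Sox2ot did not overlap.

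**Figure D1:**
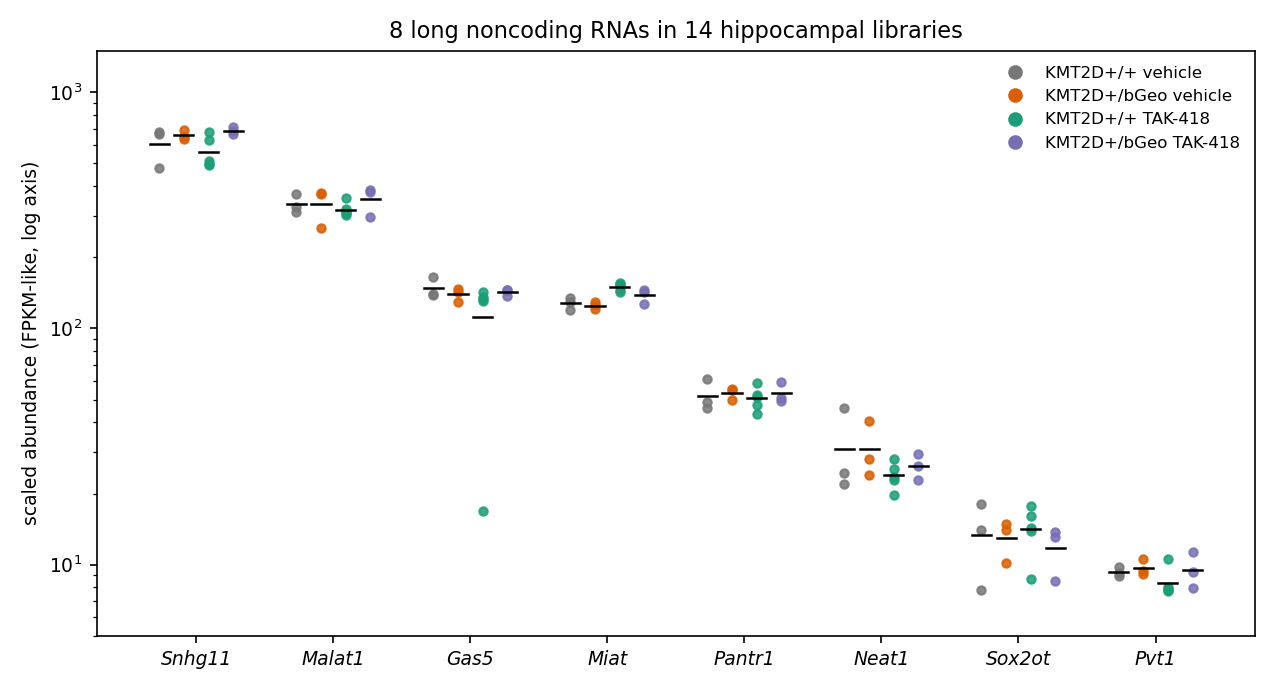
Scaled abundance (FPKM-like, log axis) of each RNA, 1 point per library, coloured by group, with a black bar at each group mean. Snhg11 lies highest at 478 to 714, Pvt1 lowest at 7.71 to 11.3, and 1 KMT2D+/+ TAK-418 library holds Gas5 at 16.8.

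None of the 8 RNAs passed the adjusted threshold in any of 6 contrasts. These were tested with limma over all 16792 genes, with Benjamini-Hochberg adjustment at 0.05. The smallest adjusted p among the 48 differences was 0.256. For the mutation under vehicle, 0 of 8 were called, against 0% of all genes, and 0 of 8 had an unadjusted p under 0.05, against 5.51%. For the drug in KMT2D+/bGeo mice, 0 of 8 were called, against 0.00596% of genes, and 1 of 8 had an unadjusted p under 0.05, against 4.49%. For the drug in KMT2D+/+ mice, 0 of 8 were called, against 0%, and 1 of 8 had an unadjusted p under 0.05, against 8.48%. Between the treated genotypes, 0 of 8 were called, against 0.0119%, and 2 of 8 had an unadjusted p under 0.05, against 5.01%. For treated KMT2D+/bGeo against vehicle KMT2D+/+ mice, 0 of 8 were called, against 0.00596%, and 0 of 8 had an unadjusted p under 0.05, against 5.41%. The interaction, the difference between the drug's effects in the 2 genotypes, gave 0 of 8 calls, against 0.00596%, and 0 of 8 at an unadjusted p under 0.05, against 4.43%. The medians of the 8 log2 differences were 0.03, 0.01, -0.09, 0.13, 0.03 and 0.09 in that order, beside medians of -0.003 to 0.005 over all genes. Contrasts that share a group share its libraries.

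**Figure D2:**
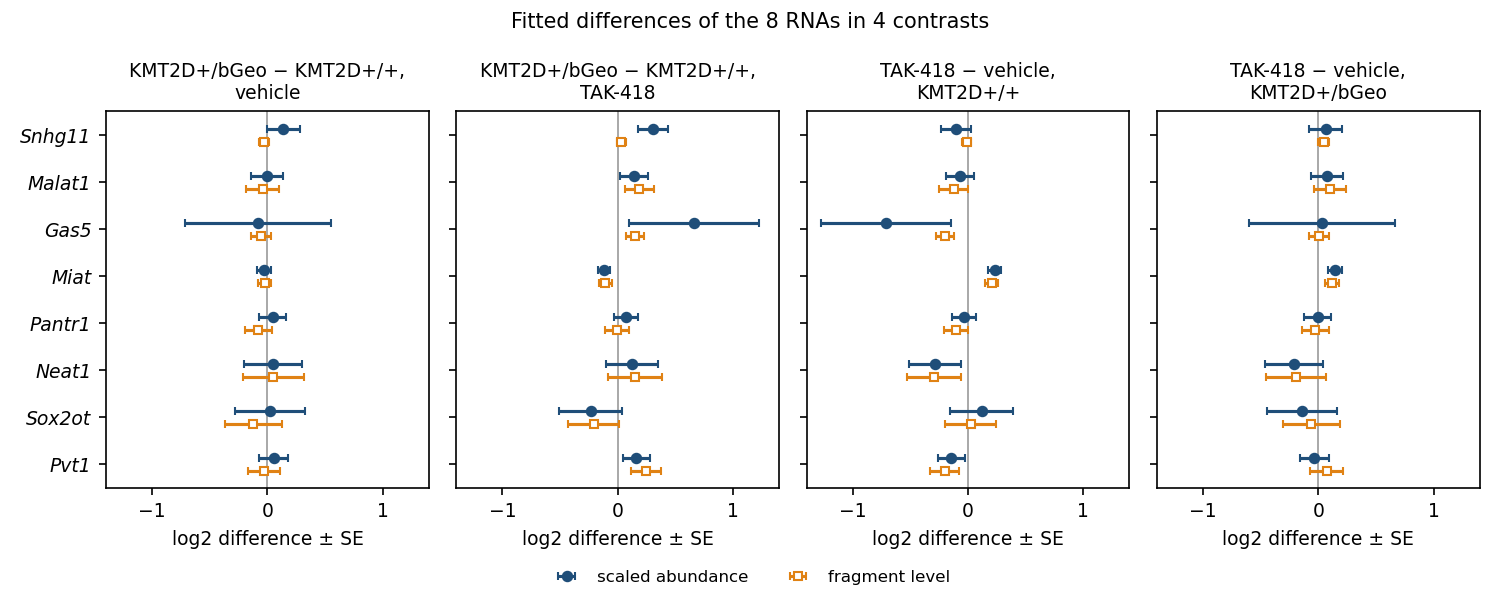
Fitted log2 difference ± SE of each RNA in 4 contrasts, from scaled abundance (filled circles) and from the fragment level (open squares). Miat lies above 0 in both drug panels (0.23 and 0.14), Gas5 has the widest error, and the Snhg11 difference between treated genotypes is 0.31 on one scale and 0.03 on the other.

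Miat showed the largest difference relative to its error. Scaled abundance of Miat was 129, 120.0 and 134 in the 3 KMT2D+/+ vehicle libraries and 154, 155.5, 142, 153 and 146 in the 5 KMT2D+/+ TAK-418 libraries. In KMT2D+/bGeo mice it was 125, 121 and 129 under vehicle and 142, 145 and 127 under TAK-418. The KMT2D+/+ groups did not overlap, and every treated library was higher. Miat was 1 of 8 members with higher values in every treated KMT2D+/+ library, against 4% of all genes, and 0 of 8 were lower in every one, against 2.39%. In KMT2D+/bGeo mice 1 treated library lay within the vehicle range. The group means were 150.04 ± 5.71 (SD, n = 5) against 128 ± 7.35 (SD, n = 3) in KMT2D+/+ and 138 ± 9.88 (SD, n = 3) against 125 ± 4.22 (SD, n = 3) in KMT2D+/bGeo mice. The log2 difference in KMT2D+/+ mice was 0.23 (SE 0.05), with a limma p of 0.00111 that ranked 72 of 16792 and an adjusted p of 0.256. The KMT2D+/bGeo difference was 0.14 (SE 0.06, unadjusted limma p 0.0368, adjusted p 1). Treated mutants lay below treated wild types by a log2 difference of -0.12 (SE 0.05, limma p 0.0465, adjusted p 0.923), which was -0.06 (limma p 0.279, adjusted p 1) without KMT2D+/bGeo TAK-418 library 3. They lay above vehicle wild types by 0.11 (SE 0.06, limma p 0.0914, adjusted p 0.944), and by 0.17 without that library, 0.07 without KMT2D+/bGeo TAK-418 library 2 and 0.07 without KMT2D+/+ vehicle library 2. The interaction was -0.09 (SE 0.08, limma p 0.294, adjusted p 0.974), so a difference between genotypes in the drug's effect was not shown. It was -0.03 without KMT2D+/bGeo TAK-418 library 3 and -0.04 without KMT2D+/+ vehicle library 2. The drug difference in KMT2D+/+ mice was 0.20 on the fragment level (SE 0.05, limma adjusted p 0.303).

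Markers of thalamus and habenula, which border the hippocampus, were also higher in the treated KMT2D+/+ libraries. The 4 measured markers summed to 50.8 to 60.6 in KMT2D+/+ vehicle and 62.2 to 71.6 in KMT2D+/+ TAK-418 libraries, with no overlap. In KMT2D+/bGeo mice they summed to 57.3 to 57.8 under vehicle and 61.6 to 67.2 under TAK-418. The summed level of 6 hippocampal field markers was 438 to 468 and 416 to 484 in the KMT2D+/+ vehicle and TAK-418 groups. The part of these tissues in the Miat difference was not tested, and in whole tissue fewer cells of a type and less RNA per cell cannot be told apart.

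The TACTAAC elements of Miat (chr5:112213228-112229395, minus strand, GRCm38) are shown because they set this RNA apart in sequence from the other 7. Its longest annotated transcript of 9163 bases held 6 copies of the 7-base sequence on the sense strand, between positions 4941 and 5623 from its 5′ end. Neat1 held 1 copy in 20771 bases, and the other 6 RNAs held 0. Among the longest transcripts of 55450 genes, 3 genes (0.00541%) had as many copies as Miat or more, Miat included. The 100 bases at chr5:112216734-112216833 hold 3 copies, printed in capitals. Of non-overlapping 100-base windows of those transcripts, 0.24% held the sequence and 4 windows held 3 or more.
Miat repeat window: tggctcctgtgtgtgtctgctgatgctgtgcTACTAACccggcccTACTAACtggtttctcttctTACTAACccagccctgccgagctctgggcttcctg
Sf1, the gene of the protein that recognises this sequence at branch points, was among the nuclear speckle genes with the smallest p. It was 55.3 ± 1.82 (SD, n = 3) and 59.1 ± 1.45 (SD, n = 5) in KMT2D+/+ vehicle and TAK-418 libraries, a log2 difference of 0.09 (SE 0.04, limma p 0.034, adjusted p 0.54).

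In every library 97.0% to 100% of Miat began at 1 position, 112228709. Of 17 assembled introns, 9 were annotated and 10 occurred in all 14 libraries. A 124-base internal exon (chr5:112228055-112228178) was included in 80.4% to 89.2% of the abundance that spanned it. A neighbouring exon ended at either of 2 donor sites, 8 bases apart, in all 14 libraries. Each form was counted against transcripts that skip the exon, with the other form left out. On that basis the 56-base form stood at 30.9% to 79.5% and the 48-base form at 22.6% to 63.1%. These are not shares of 1 total and do not sum to 100%. The exon is printed with the bases found only in the longer form (chr5:112228301-112228356) in capitals. They begin with GT themselves.
Miat 56-base exon: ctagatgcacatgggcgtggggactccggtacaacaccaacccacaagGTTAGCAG
Shares of this kind are the assembler's estimates, and they are given as descriptions with no test.

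Gas5 (chr1:161034422-161038539, plus strand) had the widest ratio of highest to lowest scaled abundance of the 8 RNAs. It was 166, 139 and 140.5 in KMT2D+/+ vehicle, 143, 147 and 129.6 in KMT2D+/bGeo vehicle, and 146, 138 and 145 in KMT2D+/bGeo TAK-418 libraries. In the 5 KMT2D+/+ TAK-418 libraries it was 16.8, 135, 134, 131 and 142. Library 1 of that group stood alone, 9.85 times below the highest library. In it the last Gas5 exon ran 3391 bases past the annotated end, against 0 to 18 bases elsewhere. The abundance-weighted length was 3872 bases there and 470 to 543 in the other 13 libraries. On the fragment level Gas5 was 61.9 in that library, against 63.1 to 80.3 in the others, which was still the lowest but only 1.30 times below the highest. The labels do not state that either kit marks strand, and reads of Gas5 and of a gene on the opposite strand then cannot be told apart.

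The drug difference of Gas5 in KMT2D+/+ mice was -0.71 on the log2 scale (SE 0.56, limma p 0.23, adjusted p 0.75) with all libraries. Without library 1 it was -0.12 (limma p 0.0844, adjusted p 0.685). On the fragment level the KMT2D+/+ groups were 76.1 ± 3.97 (SD, n = 3) under vehicle and 66.2 ± 4.28 (SD, n = 5) under TAK-418. That difference was -0.20 (SE 0.08, limma p 0.0214, adjusted p 0.479), and 1 treated library lay above the lowest vehicle library. This comparison was chosen after its values were seen.

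Gas5 was spliced as annotated. All 13 assembled introns were annotated, and 12 occurred in all 14 libraries. A 41-base exon (chr1:161037124-161037164) was included in 9.58% to 16.95% of the abundance spanning it (median 13.5%). Group means were 13.2% ± 3.69 (SD, n = 3) in KMT2D+/+ vehicle, 12.9% ± 1.10 (SD, n = 3) in KMT2D+/bGeo vehicle, 13.3% ± 1.03 (SD, n = 5) in KMT2D+/+ TAK-418 and 13.99% ± 0.567 (SD, n = 3) in KMT2D+/bGeo TAK-418 libraries. The exon is printed in capitals between 10 bases of each neighbouring exon.
Gas5 41-base exon: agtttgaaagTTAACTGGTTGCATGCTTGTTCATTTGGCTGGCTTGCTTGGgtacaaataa

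Snhg11 (chr2:158375638-158386145, plus strand, annotated as protein coding) differed between libraries on the abundance scale more than on the fragment level. Per length it was 677, 664 and 478 in KMT2D+/+ vehicle and 637, 649.8 and 690.0 in KMT2D+/bGeo vehicle libraries. Under TAK-418 it was 499, 677, 627, 490.3 and 512 in KMT2D+/+ and 683, 714 and 667 in KMT2D+/bGeo libraries. The 4 lowest libraries, at 478 to 512, were all KMT2D+/+. Treated KMT2D+/bGeo mice lay above treated KMT2D+/+ mice by 0.31 (SE 0.13, limma p 0.0361, adjusted p 0.923), with 1 of 5 KMT2D+/+ libraries within the mutant range. Under vehicle the genotype difference was 0.14 (SE 0.15, limma p 0.364, adjusted p 0.998). Its direction turned on the fragment level (-0.03, SE 0.04, limma p 0.538, adjusted p 1) and without KMT2D+/+ vehicle library 3 (-0.03, limma p 0.845, adjusted p 1). Without KMT2D+/+ vehicle library 1 or 2 it was 0.23 or 0.21.

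The 4 low Snhg11 libraries were also those with longer assembled transcripts. Their weighted length was 5528 to 5680 bases, against 3959 to 4024 in the other 10. In the 10, an unannotated intron of 1463 bases (chr2:158381041-158382503) was removed from most of the abundance (median 66.6% over all 14), and in the 4 it was 0. Another unannotated intron of 2109 bases (chr2:158383164-158385272) carried up to 33.5%. Both lie downstream of the last annotated intron that was assembled, begin with GT and end with AG. On the fragment level Snhg11 ranged from 2530 to 2846 over all 14 libraries, a coefficient of variation of 3.03%, at or under which lay 2.16% of 13338 genes with a value in all libraries. The genotype difference between treated mice was 0.03 on that scale (SE 0.04, limma p 0.479, adjusted p 0.931).

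**Figure D3:**
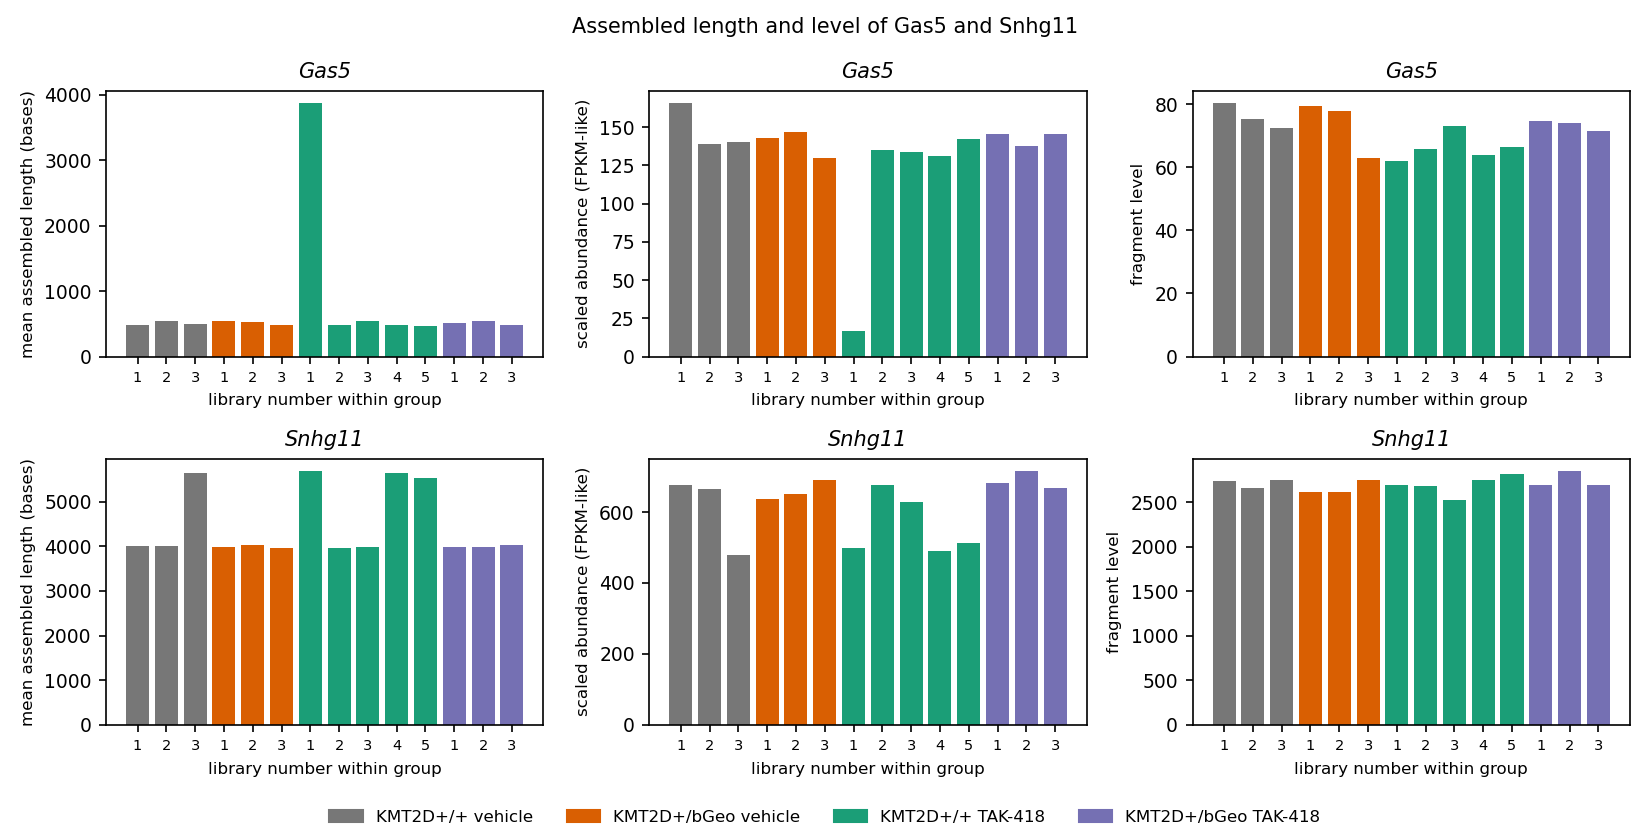
Abundance-weighted assembled length (bases), scaled abundance and fragment level of Gas5 (top) and Snhg11 (bottom), 1 bar per library, coloured by group. The 1 long Gas5 assembly (3872 bases) and the 4 long Snhg11 assemblies (5528 to 5680 bases) coincide with the low abundances, while the fragment levels stay at 61.9 to 80.3 and 2530 to 2846.

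Malat1 (chr19:5795690-5802672, minus strand) had overlapping levels in the 4 groups. Its values were 326, 369 and 312 in KMT2D+/+ vehicle and 376, 370.1 and 267 in KMT2D+/bGeo vehicle libraries. Under TAK-418 it was 301, 355, 307, 310.4 and 320.0 in KMT2D+/+ and 297, 387 and 379 in KMT2D+/bGeo libraries. High and low libraries occurred in both genotypes. Its log2 differences over the 6 contrasts lay between -0.07 and 0.15.

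The assembled form of Malat1 split the libraries in a way that its level did not. In 11 libraries 99.0% to 99.9% of the abundance was 1 unspliced exon. In KMT2D+/bGeo vehicle library 2 and KMT2D+/+ TAK-418 libraries 1 and 4 the share of the unspliced form was 0%, and transcripts with unannotated introns carried all of it. Those introns used 3 donors, and 2 of the donors were joined to more than 1 acceptor. Of 19 assembled introns, the 6 described here occurred in more than 1 library and reached 5% or more in some library. Their splice sites are printed because all 6 introns begin with GT and end with AG, both in capitals. Each donor line holds 10 exon bases and 20 intron bases, and each acceptor line 20 intron bases and 10 exon bases.
Malat1 donor, introns of 142, 597 and 601 bases (chr19:5799478-5799507): agatgtaaagGTatgctttttttcttcttg
Malat1 acceptor, intron of 142 bases (chr19:5799346-5799375): aaacctttttttttctgtAGacctttttca
Malat1 acceptor, intron of 597 bases (chr19:5798891-5798920): caatgtttcgtttgcctcAGacaggtttct
Malat1 acceptor, intron of 601 bases (chr19:5798887-5798916): gtttcgtttgcctcagacAGgtttctcttc
Malat1 donor, introns of 143 and 315 bases (chr19:5798016-5798045): aacatctaggGTaagacacttttcccccac
Malat1 acceptor, intron of 143 bases (chr19:5797883-5797912): taaagagttttcctttgcAGagcctcattt
Malat1 acceptor, intron of 315 bases (chr19:5797711-5797740): ttctagctttttttttacAGaccacacaga
Malat1 donor, intron of 453 bases (chr19:5801813-5801842): gacagaaaagGTacttaaaggcacaggtag
Malat1 acceptor, intron of 453 bases (chr19:5801370-5801399): ctaacgactagcattggcAGctgacccagg
The acceptors of the 597-base and 601-base introns lie 4 bases apart.

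The 3′ end of Malat1 is known to be made by cleavage after a genomically encoded A-rich tract, and not by polyadenylation. The longest run of A near the 3′ end of the annotated transcript was 12 bases, and it is printed in capitals with 45 bases on each side.
Malat1 A run (chr19:5795943-5796044): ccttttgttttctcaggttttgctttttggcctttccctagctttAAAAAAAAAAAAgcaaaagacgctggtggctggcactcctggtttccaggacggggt
The main assembled transcript ended 110 to 168 bases before this run in 13 libraries. In KMT2D+/+ TAK-418 library 1, the deepest, it ran through the run to position 5795685. The 5′ end of the main transcript lay between 5802664 and 5802729 in all 14 libraries.

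Neat1 (chr19:5824708-5845478, minus strand), which lies upstream of Malat1 with 22036 bases between the genes, was highest in the 2 libraries richest in choroid plexus markers. Scaled abundance of Neat1 was 21.9, 24.3 and 46.1 in KMT2D+/+ vehicle and 40.5, 24.1 and 28.0 in KMT2D+/bGeo vehicle libraries. Under TAK-418 it was 28.0, 22.8, 19.8, 23.6 and 25.4 in KMT2D+/+ and 26.2, 29.3 and 22.7 in KMT2D+/bGeo libraries. The 46.1 and 40.5 stood apart from the other 12, which lay between 19.8 and 29.3. Ttr, the transthyretin gene that choroid plexus epithelium expresses strongly, was 6398 and 4925 in those 2 libraries and 6.51 to 888 in the rest. Of the 9 markers, 0 were listed at 0 in those 2 libraries and up to 4 in others. None was at 0 either in KMT2D+/bGeo vehicle library 3 or in library 1 of both TAK-418 groups. In the libraries with intermediate marker sums of 1107 and 735 Neat1 was 28.0 and 26.2, within the range of the rest. The part of choroid plexus in the Neat1 level was not tested. The log2 differences of Neat1 lay between -0.29 and 0.12 over the 6 contrasts, none with an unadjusted limma p under 0.05.

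**Figure D4:**
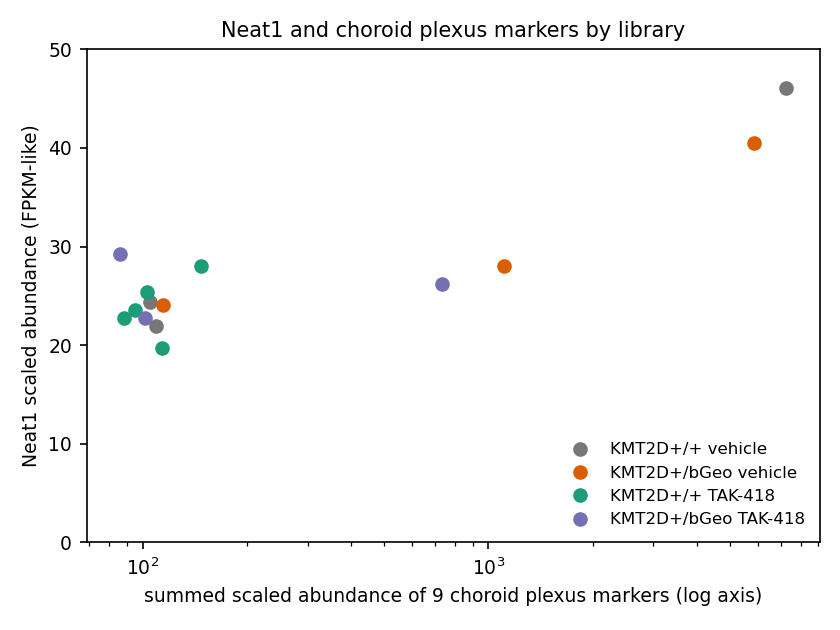
Scaled abundance of Neat1 (FPKM-like) against the summed scaled abundance of 9 choroid plexus markers (log axis), 1 point per library, coloured by group. The 2 libraries with marker sums of 5864 and 7272 hold Neat1 at 40.5 and 46.1, and the other 12 at 19.8 to 29.3.

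Only the region of the short Neat1 isoform was assembled. In each library the transcripts covered 2994 to 3478 bases at the 5′ end of the gene, and 0 transcripts were assembled in the 17691 to 17724 bases of long-isoform sequence beyond them. An assembler listing nothing there does not show that the long isoform was absent. An annotated intron of 143 bases (chr19:5844435-5844577) occurred in all 14 libraries, with a share from 0.231% to 100% (median 0.998%). It carried over 50% in 3 of them, which were KMT2D+/+ vehicle library 1 and KMT2D+/bGeo vehicle libraries 1 and 2. It is printed whole, since it is the 1 intron that all libraries share, with GT and AG in capitals.
Neat1 143-base intron: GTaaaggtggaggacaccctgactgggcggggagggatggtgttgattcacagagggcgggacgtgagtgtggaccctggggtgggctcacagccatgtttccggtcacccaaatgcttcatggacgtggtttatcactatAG

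Pantr1 (chr1:42590782-42694842, minus strand) had overlapping levels in all groups and used 3 starts in every library. It was 51.96 ± 7.94 (SD, n = 3) in KMT2D+/+ vehicle and 53.3 ± 2.96 (SD, n = 3) in KMT2D+/bGeo vehicle libraries. Under TAK-418 it was 50.6 ± 5.69 (SD, n = 5) and 53.2 ± 5.44 (SD, n = 3). The start nearest to Pou3f3 lay 473 bases from that gene's start and carried 21.2% to 41.1% of the abundance. The start 2670 bases away carried 40.7% to 64.5%, and the one 28067 bases away 6.53% to 24.0%. A 47-base exon (chr1:42663556-42663602) was included in 58.4% to 67.6% of the abundance spanning it. Group means were 65.1% ± 2.38 (SD, n = 3) in KMT2D+/+ vehicle, 60.9% ± 1.58 (SD, n = 3) in KMT2D+/bGeo vehicle, 62.8% ± 3.11 (SD, n = 5) in KMT2D+/+ TAK-418 and 60.5% ± 1.97 (SD, n = 3) in KMT2D+/bGeo TAK-418 libraries. It is printed in capitals between 10 bases of each neighbouring exon.
Pantr1 47-base exon: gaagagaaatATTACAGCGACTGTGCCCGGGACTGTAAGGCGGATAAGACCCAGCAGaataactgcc
Pou3f3 itself ranged from 21.2 to 66.0, and its smallest limma p over the 6 contrasts was 0.126 (adjusted p 0.923).

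Sox2ot (chr3:34104270-34682619, plus strand) had the most assembled 5′ ends of the 8 RNAs, 7 in all. Per length it was 7.83 to 18.1 in KMT2D+/+ vehicle, 10.1 to 14.9 in KMT2D+/bGeo vehicle, 8.66 to 17.7 in KMT2D+/+ TAK-418 and 8.49 to 13.8 in KMT2D+/bGeo TAK-418 libraries. All 4 ranges overlapped. The lowest library of each group, in that order, had a weighted length of 5682, 5145, 5661 and 5253 bases. Their fragment levels were 44.8, 52.5, 48.8 and 44.5, within 37.1 to 84.8 over all libraries. KMT2D+/+ TAK-418 library 1 was also long, at 5043 bases, with an abundance of 17.7. The rest had lengths of 2662 to 3395 bases. The start near position 34560351 occurred in all 14 libraries with 28.9% to 100% of the abundance. A start near 34196894 occurred in 9 libraries with up to 63.6%, and one near 34638258 in 4 with up to 63.6%. An exon of 107 bases (chr3:34653178-34653284) was included in 24.1% to 56.9%.

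Sox2 lies on the same strand within Sox2ot, and the 2 were not always kept apart. In KMT2D+/+ TAK-418 library 1 a Sox2ot assembly covered 1931 of the 2057 bases of Sox2, and transcripts of this kind held 53.8% of the Sox2ot reads there, against 0% in the other 13. The fragment level of Sox2ot was 84.8 in that library and 37.1 to 52.6 in the others. Sox2 was listed at 0 in 7 libraries and at 13.9 in another, so it is not compared between groups.

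Pvt1 (chr15:62037986-62378096, plus strand) was the lowest of the 8. It was 8.93, 9.22 and 9.77 in KMT2D+/+ vehicle, 9.15, 9.40 and 10.55 in KMT2D+/bGeo vehicle, and 9.32, 7.94 and 11.3 in KMT2D+/bGeo TAK-418 libraries. In KMT2D+/+ TAK-418 libraries it was 7.88, 7.78, 10.53, 7.71 and 8.06. Of these 5, 4 lay below the KMT2D+/+ vehicle libraries and 1 above them. The log2 differences of Pvt1 lay between -0.14 and 0.16 over the 6 contrasts. Its weighted length varied from 1831 to 2913 bases between libraries. On the fragment level the KMT2D+/+ TAK-418 libraries were 21.4, 14.2, 21.5, 17.6 and 22.7. The KMT2D+/+ vehicle libraries were 20.6 to 23.3 on that scale, so library 3 did not lie above them there. Pvt1 had 31 assembled introns, 15 of them annotated, and 7 occurred in all libraries. Myc, its neighbour, was 2.26 ± 0.123 (SD, n = 3) in KMT2D+/+ vehicle and 2.89 ± 0.126 (SD, n = 5) in KMT2D+/+ TAK-418 libraries, a log2 difference of 0.26 (SE 0.08, limma p 0.00792, adjusted p 0.414).

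**Figure D5:**
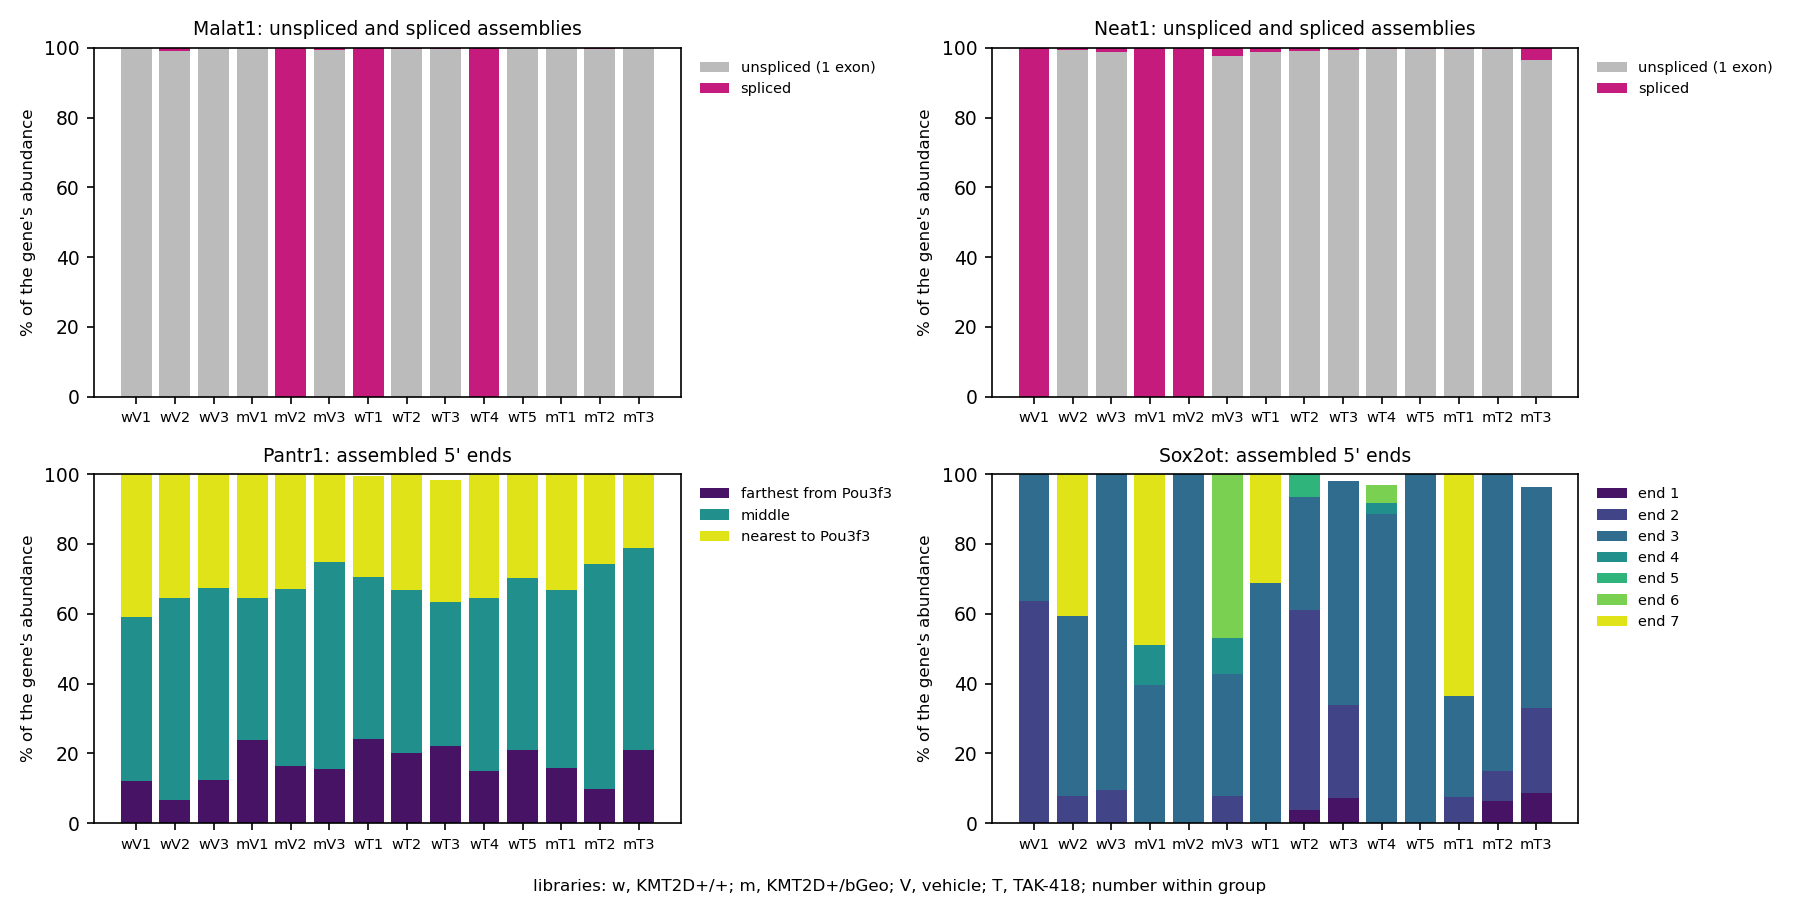
Share of each gene's abundance (%) per library. The top row splits Malat1 and Neat1 into unspliced and spliced assemblies, each spliced throughout in 3 libraries, and the bottom row splits Pantr1 and Sox2ot by assembled 5′ end (ends numbered along the gene), with 3 Pantr1 ends in all 14 libraries.

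The levels of the 8 RNAs were compared pairwise over the 14 libraries, and 0 of 28 pairs passed a permutation test after Benjamini-Hochberg adjustment. The strongest was Miat with Pvt1 (Pearson r -0.65, permutation p 0.0136, adjusted p 0.381; Spearman rho -0.67, permutation p 0.0105, adjusted p 0.262). Without the 2 libraries farthest from the Miat median r was -0.75. Pantr1 with Pvt1 gave r 0.55 (permutation p 0.0445, adjusted p 0.455; rho 0.48, permutation p 0.0857, adjusted p 0.48), and 0.51 without 2 libraries. Miat with Pantr1 gave r -0.54 (permutation p 0.0487, adjusted p 0.455; rho -0.56, permutation p 0.038, adjusted p 0.355), and -0.37 without 2 libraries. With group means subtracted, this last pair alone passed (r -0.80, permutation adjusted p 0.026). That permutation shuffled values over all 14 libraries and made no allowance for the subtracted means. Its p may therefore be too small, and no conclusion is drawn from it.

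For each RNA the 2 genes with the most similar pattern over the 14 libraries were sought among 13046 genes. For Miat these were Oxtr, the oxytocin receptor gene (r 0.96), and Atf7ip (r 0.92). For Neat1 they were Cdkn1c, a cyclin-dependent kinase inhibitor gene (r 0.94), and Slc13a4, a sulfate transporter gene (r 0.93), which was 1.78 to 11.9. For Malat1 they were Rp9 (r 0.88) and D330023K18Rik (r 0.85), for Pantr1 Map1lc3a (r 0.87) and Ccdc171 (r 0.86), and for Pvt1 Sema3a (r 0.85) and Pgp (r 0.83). Snhg11 was most like Zfp944 (r 0.85) and Rpl36 (r 0.84), and Sox2ot was most like Gm21811 (r 0.83) and Ankrd34a (r 0.82). For Gas5 they were Jakmip1 and Timm13 (both r 1.00, with rho 0.57 and 0.60), and Timm13 ranged from 0.371 to 99.0. This likeness rests on KMT2D+/+ TAK-418 library 1, without which r was 0.72 and 0.63. For the other 7 RNAs r without the library farthest from the median was 0.77 to 0.95. For Neat1 and Snhg11 this cannot show whether the likeness rests on a few libraries. KMT2D+/bGeo vehicle library 1, rich in choroid plexus markers and with Neat1 at 40.5, stayed in, as did most of the low Snhg11 libraries. The rho was 0.78 and 0.84 for Neat1 with Cdkn1c and Slc13a4. It was 0.80 and 0.49 for Snhg11 with Zfp944 and Rpl36. None of the genes found as most similar lay within 1 Mb of its partner, and no member was among them.

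The proteins and RNAs that work with these transcripts showed 0 calls in any contrast by limma. Of 20 paraspeckle genes, in 120 differences, 5 had an unadjusted p under 0.05, all higher. That is 4.17%, beside 4.43% to 8.48% of all genes in the single contrasts, so the count did not exceed the background. Pspc1, a core paraspeckle protein gene, was 26.5 ± 0.804 (SD, n = 3) in KMT2D+/+ vehicle and 30.5 ± 1.58 (SD, n = 3) in KMT2D+/bGeo TAK-418 libraries, 0.20 higher on the log2 scale (SE 0.05, limma p 0.00402, adjusted p 0.635). Rbm4b differed by 0.22 between treated and vehicle KMT2D+/bGeo mice (SE 0.08, limma p 0.0176, adjusted p 0.993). Of 20 nuclear speckle genes, 3 of 120 differences were higher and 1 lower at that p, or 3.33%, below the same background. The lower one was Srrm1, a splicing coactivator gene, in the interaction (-0.16, SE 0.06, limma p 0.0178, adjusted p 0.974). Median log2 differences lay between -0.01 and 0.03 in the paraspeckle list and between -0.02 and 0.03 in the speckle list.

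The 19 measured snoRNA host genes gave 0 higher and 1 lower of 114 differences at an unadjusted p under 0.05, or 0.877%, below the 4.43% to 8.48% of all genes. Snhg15 differed by -0.37 in treated mutants against vehicle wild types (SE 0.17, limma p 0.0537, adjusted p 0.925). The list's medians lay between -0.10 and 0.06 over the 6 contrasts, beside -0.003 to 0.005 over all genes. The lowest was the drug contrast in KMT2D+/+ mice, with 4 of 19 higher. The highest were the contrast between treated genotypes, with 16 of 19 higher, and the interaction, with 14 of 19 higher, and all 3 use the same KMT2D+/+ TAK-418 libraries. Of 24 measured other brain long noncoding RNAs, 4 of 144 differences were higher and 0 lower at that p, or 2.78%, also below the background. Pantr2 was 0.46 higher in treated KMT2D+/bGeo than in treated KMT2D+/+ mice (SE 0.18, limma p 0.0243, adjusted p 0.923), and C130071C03Rik 0.14 higher in mutants under vehicle (SE 0.06, limma p 0.0376, adjusted p 0.87). Medians of these RNAs lay between -0.03 and 0.07.

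The 11 neighbouring genes gave 2 higher differences, both Myc, and 2 lower of 66 at an unadjusted limma p under 0.05, or 6.06%, within the 4.43% to 8.48% of all genes. Frmd8, upstream of Neat1, differed between the vehicle genotypes, mutant minus wild type, by -0.29 (SE 0.10, limma p 0.0118, adjusted p 0.739). Zbtb37, which begins beside Gas5 on the opposite strand, differed in the same contrast by -2.68 (SE 0.82, limma p 0.00674, adjusted p 0.707). Its values fell into 2 sets, and it was listed at 0 in 3 libraries and reached 6.33 in others. Ralgapb, Crybb1, Crybb3 and Slc32a1 had no unadjusted limma p under 0.05 in any contrast, and the smallest was 0.112.

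In the authors' deposited tables, which pool each group and give no spread, 0 of 32 comparisons of the 8 loci had a q under 0.05. The background of called loci was 0.218%, 0.611%, 0.324% and 0.224% in the 4 tables, in the order treated mutant over treated wild type, vehicle mutant over treated wild type, treated mutant over vehicle wild type and vehicle mutant over vehicle wild type. The smallest deposited p was that of Neat1 in the authors' deposited table of vehicle KMT2D+/bGeo over treated KMT2D+/+ mice, 20.9 over 15.7 FPKM (log2 0.42, p 0.001, q 0.127). Its locus in that table runs from 5824708 to 5875274 and so spans Frmd8 as well. The vehicle KMT2D+/bGeo group also holds library 1, with a choroid plexus marker sum of 5864 and Neat1 at 40.5 scaled abundance. Libraries 2 and 3 of that group held Neat1 at 24.1 and 28.0. Treated KMT2D+/+ libraries held it at 19.8 to 28.0, with marker sums of 88.1 to 148. The part of choroid plexus in this difference was not tested. Pvt1 stood at 16.1 to 16.2 FPKM in the treated KMT2D+/+ group of the authors' deposited tables and at 9.79 to 11.996 in the others, whereas the libraries of that group gave the lowest mean of the 4. Its smallest deposited p was 0.0544 (q 0.695). Miat was 129 to 130.1 FPKM in treated and 108 in vehicle KMT2D+/+ mice, and 119 to 120 in treated and 106 in vehicle KMT2D+/bGeo mice in the authors' deposited tables. The loci of Gas5, Pvt1, Snhg11, Sox2ot and Miat also carry other symbols, and those of Malat1, Neat1 and Pantr1 carry their own alone. The Pantr1 locus nonetheless runs from 42590764 to 42752881 and so spans Pou3f3.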

How the data were processed

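Per the file headers, the authors assembled transcripts library by library in CLASS 2.1.7, and the submitters' processing notes name TopHat2 2.1.0, FastQC and the build mm10. The deposited abundance score of each transcript has an FPKM-like scale, worked out from the values: abundance times length fell on whole multiples (within 0.05) of 1 step per library for most single-exon transcripts of up to 20 reads, and the step gave a relative depth. The authors also deposited 4 tables with 1 FPKM value per pooled group, a log2 fold change, a p-value and a q-value per locus, per the file headers. For 3 of the 4 tables the ratio of the value columns correlated best with the library means of the named groups (r 0.32 to 0.47), and for treated mutants over treated wild types the named groups came second (r 0.256 against 0.271).

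Assembled transcripts were assigned to GENCODE M21 genes (GRCm38) by a shared annotated intron, and the rest by overlap of at least 50% with exons, since spliced Malat1 assemblies hold no annotated intron. Abundances were summed per gene and scaled by the median of ratios over 13338 genes with a value in all 14 libraries. Of 19184 genes with a value, 16792 had one in 3 libraries or more and were tested, as log2(value + 0.85), with limma 3.58.1 (trend) in R 4.3.3, 4 group means and Benjamini-Hochberg adjustment. A log2 difference is on that scale. On simulated data for the genotype contrast under vehicle (16792 genes), 67% of genes changed by a log2 of 1 and 84% of those changed by 2 were recovered. Assigned transcripts held 93.1% to 96.2% of the abundance in 12 libraries, 63.0% in KMT2D+/bGeo vehicle library 1 and 71.4% in KMT2D+/bGeo TAK-418 library 2. Sequences are from GENCODE M21 transcripts. Groups came from the labels, and library numbers only name libraries. The limma p-values set a difference against the spread between libraries within groups, each library taken as 1 mouse. The series text gives 3-4 mice per group, whereas 5 libraries are labelled KMT2D+/+ TAK-418. Whether these came from 5 separate mice is therefore not settled. The members and lists were chosen with earlier results of these data known. Named differences were those with an unadjusted p under 0.05 or the smallest p of a contrast, and in each list the 2 genes with the smallest p. A few genes of the lists are not reported here.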

Additional observations from a re-analysis of the deposited data

Results flagged for a closer look

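In the group of 5 KMT2D+/+ TAK-418 libraries, 16 sets of values (8 RNAs on 2 scales) were screened for a library whose gap to its nearest neighbour exceeded 0.71 of the group's range. Chance gives about 1 such set in 20. Gas5 scaled abundance was 16.8 in library 1, against 131 to 142 in the other 4. Pvt1 scaled abundance was 10.53 in library 3, against 7.71 to 8.06 in the other 4. On the fragment level library 3 held Pvt1 at 21.5, within the group's range of 14.2 to 22.7. The fragment level of Sox2ot was 84.8 in library 1, against 38.1 to 48.8 in the other 4.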

How the results depend on the processing

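No member was called by limma in any of the 6 contrasts under any alternative run, which were 28 per contrast and 27 for the interaction, with other scalings, filters, pseudocounts, assignments and left-out libraries among them. The smallest adjusted p among the 8 RNAs over these was 0.203, and leaving out single libraries gave 0 calls throughout. The Miat drug difference in KMT2D+/+ mice ranged from 0.19 to 0.27, and that of Gas5 from -1.56 to -0.12. With group means subtracted, 1 pair of RNAs passed the threshold, in a permutation test that made no allowance for the subtracted means. With only the highest transcript of each gene, the sign turned for Miat under the drug in mutants (-0.0733), Miat in treated mutants against vehicle wild types (-0.00976), and Snhg11 between genotypes under TAK-418 (-0.0878) and under vehicle (-0.26). The Snhg11 difference under vehicle also turned with abundance times length (-0.0281) and without both libraries highest in choroid plexus markers (-0.00168), and lay between -0.0256 and 0.23 with 1 library left out. The lowest of these was without KMT2D+/+ vehicle library 3. The cause was not tested. With multi-exon transcripts alone, mean levels were 70.9 for Malat1 and 6.41 for Neat1. Assignment by shared intron alone, like r of the nearest genes without 1 library, was added after seeing the data. That assignment left Malat1 with a value in 11 libraries. No paired analysis was possible because the library numbers are names in accession order.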
